A study of Mus musculus with 12 samples.

Results

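The genes described here are 40 mouse genes of Wnt signalling: 18 Wnt ligands, 12 receptors (10 Frizzled genes with Lrp5 and Lrp6), 7 genes of the R-spondin axis (Rspo1, Rspo2, Rspo3 and Rspo4 with Lgr4, Lgr5 and Lgr6) and 3 feedback regulators (Axin2, Znrf3 and Rnf43). Wnt4 was left out of the set. They were chosen by name and not by any measured value, though with earlier results of these data known. All 40 were found among the 21887 coding genes of the RefSeq gene table. A ChIP-seq peak was linked to a gene when its summit lay within 50 kb of the gene's span, in mm10 coordinates.

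The data were ChIP-seq peak lists of the estrogen receptor ERα, the product of Esr1, and the progesterone receptor PR, the product of Pgr. Glands came from mice whose Esr1 carried Y541S, which alters the part of ERα that binds ligand, or was wild type (WT). All mice were raised to 8 weeks of age and carried implants of estradiol (E2) and progesterone (P4), and whole mammary glands were taken 4 days after implantation. Each receptor and genotype had 2 biological replicates, which makes 8 libraries, and the question was where on chromatin each receptor sits in mutant and wild-type glands. Samples carrying D542G were not analysed here. The title speaks of luminal cells but the labels of whole glands, and a peak does not show in which cells it arose. The labels do not say how many animals a replicate held or whether ERα and PR libraries with 1 replicate number shared chromatin, so p-values measure only the spread between these libraries.

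Wnt proteins are secreted lipid-modified ligands that bind Frizzled receptors together with the co-receptors Lrp5 and Lrp6. Binding stabilises β-catenin, which enters the nucleus and acts with TCF and LEF factors on target genes such as Axin2. The membrane ligases Znrf3 and Rnf43 remove Frizzled receptors from the cell surface, and R-spondins, bound to Lgr4, Lgr5 or Lgr6, block that removal. In the mammary gland, progesterone acts on hormone-sensing luminal cells, which signal to neighbouring cells through paracrine factors that include Wnt ligands and R-spondins.

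The promoters of 3 members are printed because ERα and PR peaks lay on them: the starts of Axin2 and Fzd1 had a summit within 1 kb in all 8 libraries, and the Lgr4 promoter had a summit inside it in 4 of 4 ERα libraries and 3 of 4 PR libraries. Each runs from 250 bases before to 50 bases after the gene start, 5′ to 3′ along the gene, from the RefSeq promoter table of assembly GRCm38.p6. Capitals mark matches on either strand to the estrogen receptor core GGTCA or the progesterone receptor core TGTNCT. The 3 stretches are chr11:108920099-108920398 on the plus strand for Axin2, chr5:4758167-4758466 on the minus strand for Fzd1 and chr2:109917397-109917696 on the plus strand for Lgr4.
Axin2: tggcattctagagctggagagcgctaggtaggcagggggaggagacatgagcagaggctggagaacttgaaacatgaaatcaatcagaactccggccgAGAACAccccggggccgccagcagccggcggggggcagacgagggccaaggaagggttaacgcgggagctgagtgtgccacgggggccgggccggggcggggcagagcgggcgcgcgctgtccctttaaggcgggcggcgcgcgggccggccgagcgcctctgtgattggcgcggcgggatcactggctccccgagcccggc
Fzd1: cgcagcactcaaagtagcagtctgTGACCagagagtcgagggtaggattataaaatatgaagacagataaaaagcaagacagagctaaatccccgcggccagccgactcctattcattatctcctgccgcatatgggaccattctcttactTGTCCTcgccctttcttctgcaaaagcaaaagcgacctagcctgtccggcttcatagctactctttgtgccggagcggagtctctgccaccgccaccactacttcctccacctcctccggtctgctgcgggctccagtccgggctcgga
Lgr4: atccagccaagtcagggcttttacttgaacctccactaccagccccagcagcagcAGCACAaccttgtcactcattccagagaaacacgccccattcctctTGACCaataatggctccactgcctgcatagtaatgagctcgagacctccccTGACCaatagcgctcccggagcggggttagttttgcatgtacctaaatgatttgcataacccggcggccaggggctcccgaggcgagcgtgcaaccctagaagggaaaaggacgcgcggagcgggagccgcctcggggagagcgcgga

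The Axin2 promoter held 1 progesterone receptor core, with its first base at position -152 from the gene start, and no estrogen receptor core. The Fzd1 promoter held 1 estrogen receptor core at position -226 and 1 progesterone receptor core at -99. The Lgr4 promoter held 2 estrogen receptor cores, at positions -149 and -98, and 1 progesterone receptor core at -195. The table held 30 promoters of 26 members. An estrogen receptor core was in 12 of the 30 member promoters and in 40.5% of all 32851 promoters of the same length, and a progesterone receptor core was in 13 of 30 and in 50.5%. The full estrogen response element, an inverted repeat of GGTCA with 3 bases between the copies, was in 0 of 30 and in 0.0700% of all promoters. The full progesterone and glucocorticoid response element, an inverted repeat of TGTNC with 3 bases between the copies, was in 0 of 30 and in 0.475%. The TCF/LEF core CTTTGAT was in 2 of 30, 1 each of Wnt5b and Wnt11, and in 3.73% of all. A full estrogen element contains GGTCA, so those matches overlap, and matches describe letters in these windows only. Median GC content was 69.5% in member promoters and 52.7% in all promoters.

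Lists held 101382 to 113695 peaks in Y541S libraries and 64488 to 93491 in WT libraries. Depth, read as the expected background coverage under the peaks, was 1.35 to 2.45 in Y541S and 0.927 to 2.68 in WT libraries. ERα Y541S lists were longer than ERα WT lists, so counts of members are set beside the shares of all coding genes. Peaks near markers of the cell types that a whole gland can hold could not single out 1 type, since most genes have linked peaks. A linked ERα peak in all 4 ERα libraries was found at 79.5% of all coding genes, and a PR peak in all 4 PR libraries at 81.9%. Linked peaks in both replicates were found in Y541S glands at 7 of 7 hormone-sensing luminal, 4 of 4 luminal progenitor, 5 of 5 basal, 4 of 4 adipocyte, 3 of 3 fibroblast, 3 of 3 endothelial and 4 of 4 immune markers for both receptors. In WT glands the same held except for Krt5 with ERα and Cited1 with PR, and the part of cell makeup in the results was not tested.

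ERα had 429 and 407 peaks linked to the 40 genes in Y541S glands, against 331 and 273 in WT glands (replicates 1 and 2 in that order here and in every pair of values below). The groups did not overlap, with means of 418 ± 15.6 in Y541S and 302 ± 41.0 in WT (SD, n = 2 each). The ratio was 1.39-fold (log2 difference 0.48, SE 0.14), and 1.30-fold and 1.49-fold within replicates 1 and 2. A two-sided exact permutation test over the 4 libraries gave p = 0.333, the smallest that 2 against 2 libraries allow, so no comparison of genotypes or receptors in 1 pair of groups could pass 0.05. As a share of each list, the linked peaks made up 0.401% and 0.385% in Y541S and 0.456% and 0.423% in WT, a difference of -0.0464 percentage points (exact permutation p = 0.333). The number of linked peaks was therefore higher in Y541S and their share of the list lower. The share difference turned to 0.0200 with peaks of a −log10 p of at least 5 and to 0.0625 over the 20000 strongest peaks of each list.

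PR had 450 and 431 linked peaks in Y541S glands, against 357 and 382 in WT glands. The groups did not overlap, with means of 440.5 ± 13.4 in Y541S and 369.5 ± 17.7 in WT (SD, n = 2 each), a ratio of 1.19-fold (log2 difference 0.25, SE 0.06; exact permutation p = 0.333). The share of the list was 0.396% and 0.425% in Y541S and 0.430% and 0.409% in WT, and these overlapped (difference -0.00894 percentage points, exact permutation p = 0.667). That difference turned to 0.00186 without WT replicate 1 and to 0.00572 without Y541S replicate 1. The ERα effect of Y541S on the log2 number exceeded the PR effect by 0.22, which did not pass an exact permutation test over 36 arrangements (p = 0.5). The order depended on the setting. ERα was lower than PR at a −log10 p of at least 5 (0.49 against 0.74), with scaled coverage (0.38 against 0.63) and over the 20000 strongest peaks (0.22 against 0.28). ERα stayed higher at 10 kb (0.56 against 0.35) and with the closest gene only (0.64 against 0.33).

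**Figure D1:**
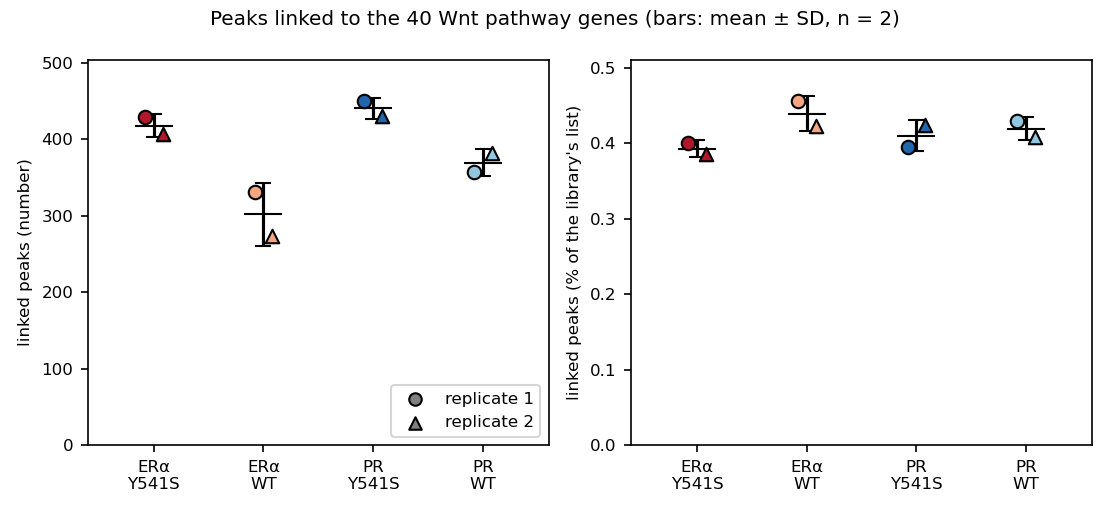
Peaks linked to the 40 genes by library, as a number (left axis) and as a percent of the library's peak list (right axis), with circles for replicate 1, triangles for replicate 2 and bars for mean ± SD (n = 2). In number, Y541S libraries stand above WT libraries for both receptors, while in share the ERα Y541S libraries stand below the ERα WT libraries and the PR groups overlap.

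The 40 windows together covered 5.48 Mb. They held 7.43 to 7.83 ERα peaks per 100 kb in Y541S and 4.99 to 6.04 in WT, against 5.18 to 5.33 and 3.33 to 3.75 in the windows of all coding genes. For PR they held 7.87 to 8.22 in Y541S and 6.52 to 6.98 in WT, against 5.08 to 5.69 and 4.24 to 4.76 for all coding genes. Member genes were longer, with a median span of 31.5 kb against 17.2 kb for all coding genes, so counts per gene are not level between the lists. Nor are they level between members, whose spans ran from 2.11 kb (Fzd9) to 168.5 kb (Znrf3). Lgr6, Lrp6, Wnt5b and Lrp5, with many peaks, spanned 122, 120, 112 and 102 kb. Rspo2 and Lgr5, with few peaks, spanned 151 and 137 kb. The closest coding gene was a member for 48.4% to 60.2% of linked peaks, and 26.7% to 34.1% lay inside a member. Between genotypes the median gene of the set differed by 2 ERα peaks and all coding genes by 2, and by 2 and 1 PR peaks.

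**Figure D2:**
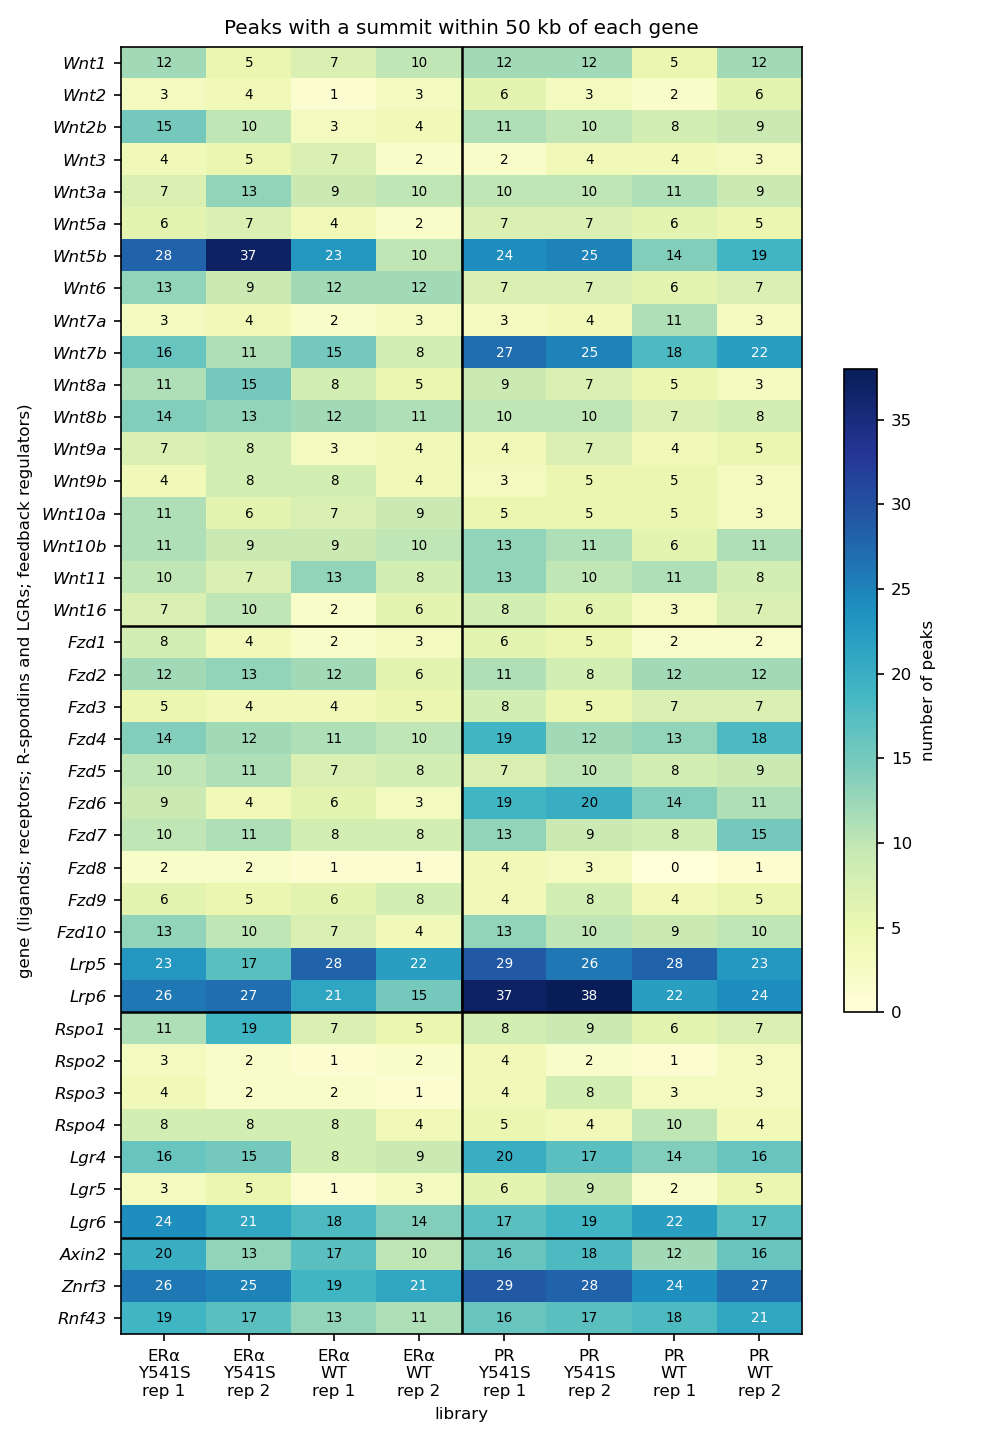
Number of peaks with a summit within 50 kb of each of the 40 genes (rows, grouped by role) in each of the 8 libraries (columns), with darker cells for more peaks. Lrp6, Znrf3, Lrp5, Wnt5b and Lgr6 hold the darkest rows, and Fzd8 has 0 PR peaks in WT replicate 1.

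More ERα peaks in both Y541S than in both WT libraries were found at 19 of 40 members (7 ligands, 7 receptors, 3 R-spondin axis genes and 2 feedback regulators) and at 40.8% of all coding genes. The reverse was found at 0 of 40 members and at 0.95% of all coding genes. For PR the count was 15 of 40 members (6 ligands, 4 receptors, 4 R-spondin axis genes and 1 feedback regulator), against 24.5% of all coding genes, and the reverse held at Fzd2 and Rnf43, 2 of 40 against 3.15%. Both receptors had more peaks in Y541S at 11 members, against 12.7% of all coding genes: Wnt2b, Wnt5a, Wnt5b, Wnt8a, Wnt8b, Fzd1, Fzd8, Lrp6, Rspo1, Lgr4 and Znrf3. All 40 members had an ERα peak in all 4 ERα libraries, against 79.5% of all coding genes, and all but Fzd8 a PR peak in all 4 PR libraries, 39 of 40 against 81.9%. A peak in all 8 libraries was thus linked to 39 of 40, against 77.7%. Single genes were not tested, since an exact permutation test of 2 against 2 libraries cannot give a p below 0.33. With peaks of a −log10 p of at least 5 the counts were 6 members for ERα, against 22% of all coding genes, and 26 for PR, against 42.1%. Over the 20000 strongest peaks they were 2 for ERα, against 7.77%, and 7 for PR, against 4.19%.

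Peaks of the 4 libraries of a receptor that overlapped were merged into regions, called shared when all 4 libraries had a peak, Y541S-only when both Y541S libraries had one and neither WT library did, and WT-only in the reverse case. ERα regions linked to the set numbered 49 Y541S-only, 9 WT-only and 89 shared, and PR regions 50, 6 and 166. Over the whole lists, in the same order, there were 9843, 1385 and 19612 ERα regions and 13325, 1075 and 38120 PR regions. More Y541S-only than WT-only regions were thus found over the whole lists too. At least 1 ERα Y541S-only region was linked to 25 of 40 members, against 49.4% of all coding genes, and a WT-only region to 7 of 40 (Wnt3, Wnt3a, Wnt7b, Wnt11, Fzd5, Fzd7 and Lrp5), against 11.5%. For PR these counts were 29 of 40, against 55.2%, and 5 of 40 (Wnt7b, Wnt8b, Fzd3, Lrp5 and Rspo3), against 9.64%. A shared ERα region was linked to 34 of 40 members, against 72.4% of all coding genes, and a shared PR region to 39 of 40, against 78.2%. A Y541S-only region of each receptor was linked to 17 of 40 members, against 35.2% of all coding genes. The WT-only counts rest on both WT libraries: without WT replicate 1 or 2 they were 39 and 34 members for ERα and 33 and 35 for PR, when a peak in 1 WT library was enough. No share of all coding genes stands beside these counts with a library left out, so they are not read as a result about the members. With peaks of a −log10 p of at least 5 they were 2 for ERα, against 4.67% of all coding genes, and 1 for PR, against 2.21%. Over the 20000 strongest peaks, Y541S-only regions were linked to 7 members for ERα, against 14.8% of all coding genes, and 6 for PR, against 8.64%.

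Among the ligands, Wnt5b, a ligand known mainly for signalling without β-catenin, had the most ERα peaks. It had 28 and 37 ERα peaks in Y541S glands, against 23 and 10 in WT glands, and 24 and 25 PR peaks in Y541S, against 14 and 19 in WT. The groups did not overlap for either receptor. Its 6 ERα Y541S-only regions were the most of any member. Of these, 5 lay inside the gene span on chromosome 6. The one nearest the top by mean position in the Y541S lists, at 119446316 to 119446696, had a fold enrichment of 3.27 and 4.04 there. Its strongest PR region lay inside the gene at 119482068 to 119482455 and was shared, with 15.1 and 11.7 fold enrichment in Y541S and 9.27 and 8.07 in WT. Fold enrichment here is the authors' own value per peak, and it is not scaled between libraries, so it describes a peak and is not compared between groups.

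Wnt5a, another ligand known mainly for signalling without β-catenin, had far fewer peaks. Its span was also shorter, 22.9 kb against 112.3 kb for Wnt5b, so the 2 counts are not level. It had 6 and 7 ERα peaks in Y541S glands, against 4 and 2 in WT glands, and 7 and 7 PR peaks in Y541S, against 6 and 5 in WT. Its groups were apart for both receptors. It had no shared ERα region and 1 Y541S-only ERα region, inside the gene on chromosome 14 at 28505354 to 28505688, with a fold of 3.74 and 2.72. A PR peak was present at that place in all 4 PR libraries, in the shared PR region at 28505136 to 28505723.

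Wnt7b, a ligand expressed in luminal epithelium, was among the members with more PR than ERα peaks. It had 27 and 25 PR peaks in Y541S glands, against 18 and 22 in WT glands. ERα counts overlapped between genotypes, with 16 and 11 peaks in Y541S and 15 and 8 in WT. It had 10 shared, 5 Y541S-only and 1 WT-only PR regions, and 2 shared, 3 Y541S-only and 1 WT-only ERα regions.

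Wnt2b, a ligand of the β-catenin branch, had 15 and 10 ERα peaks in Y541S glands, against 3 and 4 in WT glands. None of these formed an ERα Y541S-only region. PR counts were 11 and 10 in Y541S and 8 and 9 in WT. Its strongest PR region, 30.2 kb from the gene on chromosome 3 at 104991613 to 104992279, stood at 0.18% and 0.42% of the Y541S lists and at 0.99% and 0.76% of the WT lists, where 0% is the strongest peak by deposited −log10 p.

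Wnt8b and Wnt8a also had groups apart for both receptors. Wnt8b had 14 and 13 ERα peaks in Y541S, against 12 and 11 in WT, and 10 and 10 PR peaks in Y541S, against 7 and 8 in WT, with 7 shared ERα regions. Wnt8a had 11 and 15 ERα peaks in Y541S, against 8 and 5 in WT, and 9 and 7 PR peaks in Y541S, against 5 and 3 in WT. For Wnt8b the gap between the groups was a single ERα peak.

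The neighbouring ligand genes share windows and thus peaks. Wnt6 and Wnt10a lie 6.70 kb apart, and every peak linked to Wnt10a in each of the 8 libraries was also linked to Wnt6. Wnt10a had 11 and 6 ERα peaks in Y541S, against 7 and 9 in WT, and 5 and 5 PR peaks in Y541S, against 5 and 3 in WT. Wnt6 had 13 and 9 ERα peaks in Y541S, against 12 and 12 in WT, and 7 and 7 PR peaks in Y541S, against 6 and 7 in WT. The 3 ERα Y541S-only regions counted for Wnt6 are the same as the 3 counted for Wnt10a.

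Wnt10b, known for its role in early mammary development, lies 11.7 kb from Wnt1. It had 11 and 9 ERα peaks in Y541S, against 9 and 10 in WT, and 13 and 11 PR peaks in Y541S, against 6 and 11 in WT, so neither receptor separated the genotypes. It had 4 shared regions of each receptor and no genotype-only ERα region. Wnt3 and Wnt9b, whose spans overlap, had 2 to 7 and 4 to 8 ERα peaks and 2 to 4 and 3 to 5 PR peaks over the 4 libraries of a receptor. Wnt3a and Wnt9a share part of their windows as well, with 7 to 13 and 3 to 8 ERα peaks and 9 to 11 and 4 to 7 PR peaks.

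Wnt3 combined few peaks with a strong PR region. That region, 19.6 kb from the gene on chromosome 11 at 103837235 to 103837990, stood at 0.29% and 0.57% of the Y541S PR lists and at 0.97% and 0.30% of the WT PR lists. An ERα WT-only region lay within it, at 103837433 to 103837841, with a fold of 3.84 and 3.91 in the WT libraries. The nearest ERα peak of a Y541S library was 11485 bp away.

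Wnt11 had its strongest region in common to both receptors. The region lay 24.0 kb from the gene on chromosome 7 at 98878395 to 98879196, had a peak in all 8 libraries and was closest to Uvrag. It stood at 0.69% and 0.93% of the ERα Y541S lists and 1.34% and 2.15% of the ERα WT lists, and at 0.82% and 1.56% of the PR Y541S lists and 1.50% and 0.92% of the PR WT lists. Peak counts overlapped between genotypes, with 10 and 7 ERα peaks in Y541S and 13 and 8 in WT. Of the other ligands, Wnt1, Wnt2, Wnt7a and Wnt16 had 1 to 12 linked peaks in every library. Wnt7a had 11 PR peaks in WT replicate 1 and 3 or 4 in each of the other PR libraries.

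Of the receptors, Lrp6, a co-receptor phosphorylated upon Wnt binding, had the most PR peaks of all members in Y541S glands. It had 37 and 38 PR peaks in Y541S glands, against 22 and 24 in WT glands, and 26 and 27 ERα peaks in Y541S, against 21 and 15 in WT. Both receptors separated the genotypes. Its 7 PR Y541S-only regions were the most of any member, with folds of 2.68 to 3.64 in replicate 1 and 3.17 to 4.21 in replicate 2 of the Y541S libraries. Of these, 4 lay inside the gene on chromosome 6. It also had 4 ERα Y541S-only regions, and no WT-only region of either receptor.

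Lrp5, the paralogous co-receptor, had nearly as many peaks and a different pattern. It had 23 and 17 ERα peaks in Y541S glands, against 28 and 22 in WT glands, and 29 and 26 PR peaks in Y541S, against 28 and 23 in WT. The genotypes overlapped for both receptors. It held the most WT-only regions, 3 for ERα and 2 for PR, beside 2 Y541S-only regions for each receptor, and 8 shared ERα and 13 shared PR regions. The strongest peak lay inside the gene on chromosome 19 at 3653666 to 3654549 in all 8 libraries. It stood at 0.36% and 0.82% of the ERα Y541S lists and 0.75% and 0.98% of the ERα WT lists, and at 0.91% and 0.53% of the PR Y541S lists and 1.01% and 0.71% of the PR WT lists.

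Fzd6, a Frizzled receptor of tissue polarity signalling, had more PR than ERα peaks. It had 19 and 20 PR peaks in Y541S glands, against 14 and 11 in WT glands, and 9 and 4 ERα peaks in Y541S, against 6 and 3 in WT. The PR and ERα counts did not overlap in either genotype. It had 7 shared and 4 Y541S-only PR regions and no shared or genotype-only ERα region. The strongest PR region, inside the gene on chromosome 15 at 39018468 to 39019751, stood at 0.30% and 0.20% of the Y541S lists and at 0.27% and 0.57% of the WT lists. ERα peaks at or beside it stood at 9.40% and 22.9% of the Y541S lists and 33.2% and 32.7% of the WT lists. The summit of the Y541S replicate 2 peak lay 0.662 kb from the PR summit of Y541S replicate 1, and its peak did not overlap those of the other ERα libraries, so no ERα region was shared.

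Fzd10 had its strongest ERα and PR peaks on opposite sides of the gene on chromosome 5. The ERα region at 128576149 to 128576775 lay 24.7 kb from the gene, with a fold of 8.66 and 11.2 in Y541S and 8.59 and 8.04 in WT. The PR region at 128637451 to 128637980 lay 33.7 kb from it, with 20.9 and 16.8 in Y541S and 10.5 and 18.1 in WT. An ERα Y541S-only region, at 128637197 to 128637865, overlapped that PR region in part. ERα peaks numbered 13 and 10 in Y541S and 7 and 4 in WT, and PR peaks 13 and 10 in Y541S and 9 and 10 in WT.

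Fzd1 had 8 and 4 ERα peaks in Y541S glands, against 2 and 3 in WT glands, and 6 and 5 PR peaks in Y541S, against 2 and 2 in WT. Its start lay under a peak in all 8 libraries, with folds of 4.04 and 4.24 for ERα in Y541S and 3.35 and 3.38 in WT, and of 3.69 and 5.82 for PR in Y541S and 3.66 and 5.64 in WT. The Fzd1 promoter printed above lies within that region, chr5 4756984 to 4758534. Fzd8 had the fewest peaks of the receptors, with 2 and 2 ERα peaks in Y541S and 1 and 1 in WT, and 4 and 3 PR peaks in Y541S and 0 and 1 in WT. At counts this low, 1 peak decides whether the groups overlap.

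Fzd5 had both an ERα Y541S-only and an ERα WT-only region on chromosome 1, at 64753166 to 64753386 and 64753436 to 64753831, only 50 bp apart. It had 10 and 11 ERα peaks in Y541S and 7 and 8 in WT, and 7 and 10 PR peaks in Y541S and 8 and 9 in WT. Over the set, 15 of 49 ERα Y541S-only regions and 3 of 9 ERα WT-only regions lay within 500 bp of a peak of the other genotype, as did 10 of 50 and 2 of 6 PR regions. Of the remaining receptors, Fzd2, Fzd3, Fzd4, Fzd7 and Fzd9 had 4 to 14 ERα and 4 to 19 PR peaks, and Fzd2 had fewer PR peaks in both Y541S libraries, 11 and 8, against 12 and 12 in WT.

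The R-spondin axis held Lgr4, a widely expressed R-spondin receptor. It had 16 and 15 ERα peaks in Y541S glands, against 8 and 9 in WT glands, and 20 and 17 PR peaks in Y541S, against 14 and 16 in WT. Groups were apart for both receptors. It had 12 shared PR regions and 4 shared ERα regions. At its start, the summit lay between positions -74 and 27 in every library with a peak there, and a fold of 3.12 and 5.70 was listed for ERα in Y541S and 3.81 and 3.86 in WT.

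Lgr5, known as a stem cell marker in gut and hair follicle, had no shared and no genotype-only ERα region. It had 3 and 5 ERα peaks in Y541S glands, against 1 and 3 in WT glands, and 6 and 9 PR peaks in Y541S, against 2 and 5 in WT. The strongest shared PR region, inside the gene on chromosome 10 at 115515381 to 115515925, had a fold of 18.2 and 12.4 in Y541S and 3.54 and 5.19 in WT. The strongest PR peak linked to Lgr5 stood at 5.43% and 7.72% of the Y541S lists and at 43.6% and 21.7% of the WT lists. In WT replicate 2 this was another peak, and the shared region stood at 35.5% there. Folds are not scaled between libraries and positions come from lists of different lengths, so neither shows a change by itself.

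Lgr6 was among the members with most ERα regions. It had 24 and 21 ERα peaks in Y541S glands, against 18 and 14 in WT glands, and 17 and 19 PR peaks in Y541S, against 22 and 17 in WT, so the PR groups overlapped. The strongest ERα region lay inside the gene on chromosome 1 at 135019852 to 135020821, with a fold of 11.0 and 7.49 in Y541S and 11.5 and 7.76 in WT. It had 4 shared and 4 Y541S-only ERα regions. The strongest PR region in its window, at 134955449 to 134956444, was closest to Ppp1r12b and had a peak in all 8 libraries.

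Rspo1, which encodes an R-spondin made by luminal cells, had more ERα than PR peaks in Y541S glands. It had 11 and 19 ERα peaks in Y541S glands, against 7 and 5 in WT glands, and 8 and 9 PR peaks in Y541S, against 6 and 7 in WT. It had 2 ERα and 1 PR Y541S-only regions. The PR one lay 2.26 kb from the gene on chromosome 4, at 125011202 to 125011604, with a fold of 5.83 and 4.82.

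Rspo4 had few peaks but, by mean position in the 4 lists, the PR peak of the set nearest the top. Its region, 47.5 kb from the gene on chromosome 2 at 151794831 to 151795509, stood at 0.18% and 0.60% of the Y541S PR lists and at 0.34% and 0.16% of the WT PR lists. The strongest ERα region lay on the other side of the gene at 151915700 to 151916653, 41.3 kb away. Rspo4 had 8 and 8 ERα peaks in Y541S, against 8 and 4 in WT, and 5 and 4 PR peaks in Y541S, against 10 and 4 in WT. Rspo2 and Rspo3 had 1 to 4 ERα peaks and 1 to 8 PR peaks.

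The feedback regulators had many peaks. Axin2, a scaffold of the β-catenin destruction complex that is itself induced by Wnt signalling, had 20 and 13 ERα peaks in Y541S glands, against 17 and 10 in WT glands, and 16 and 18 PR peaks in Y541S, against 12 and 16 in WT. The genotypes overlapped for both receptors. Its start lay under a peak in all 8 libraries, in the region at chromosome 11, 108920105 to 108920916, with folds of 4.25 and 4.16 for ERα in Y541S and 2.99 and 3.62 in WT. For PR the folds there were 6.13 and 7.64 in Y541S and 2.72 and 4.17 in WT. As said above, folds are not scaled between libraries and are not compared between groups. These start peaks were not among the strongest. They stood at 16.9% and 16.1% of the ERα Y541S lists and 66.1% and 41.9% of the ERα WT lists. For PR they stood at 37.5% and 12.2% in Y541S and 83.0% and 45.9% in WT. Axin2 had 4 ERα Y541S-only regions, 2 of them inside the gene, and 2 PR Y541S-only regions, and no WT-only region.

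Znrf3 had the most shared PR regions of the set, 14. It had 26 and 25 ERα peaks in Y541S glands, against 19 and 21 in WT glands, and 29 and 28 PR peaks in Y541S, against 24 and 27 in WT. Both receptors separated the genotypes. Rnf43, the related ligase, separated them in opposite ways. It had 19 and 17 ERα peaks in Y541S, against 13 and 11 in WT, and 16 and 17 PR peaks in Y541S, against 18 and 21 in WT. It had 8 shared PR and 3 shared ERα regions.

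**Figure D3:**
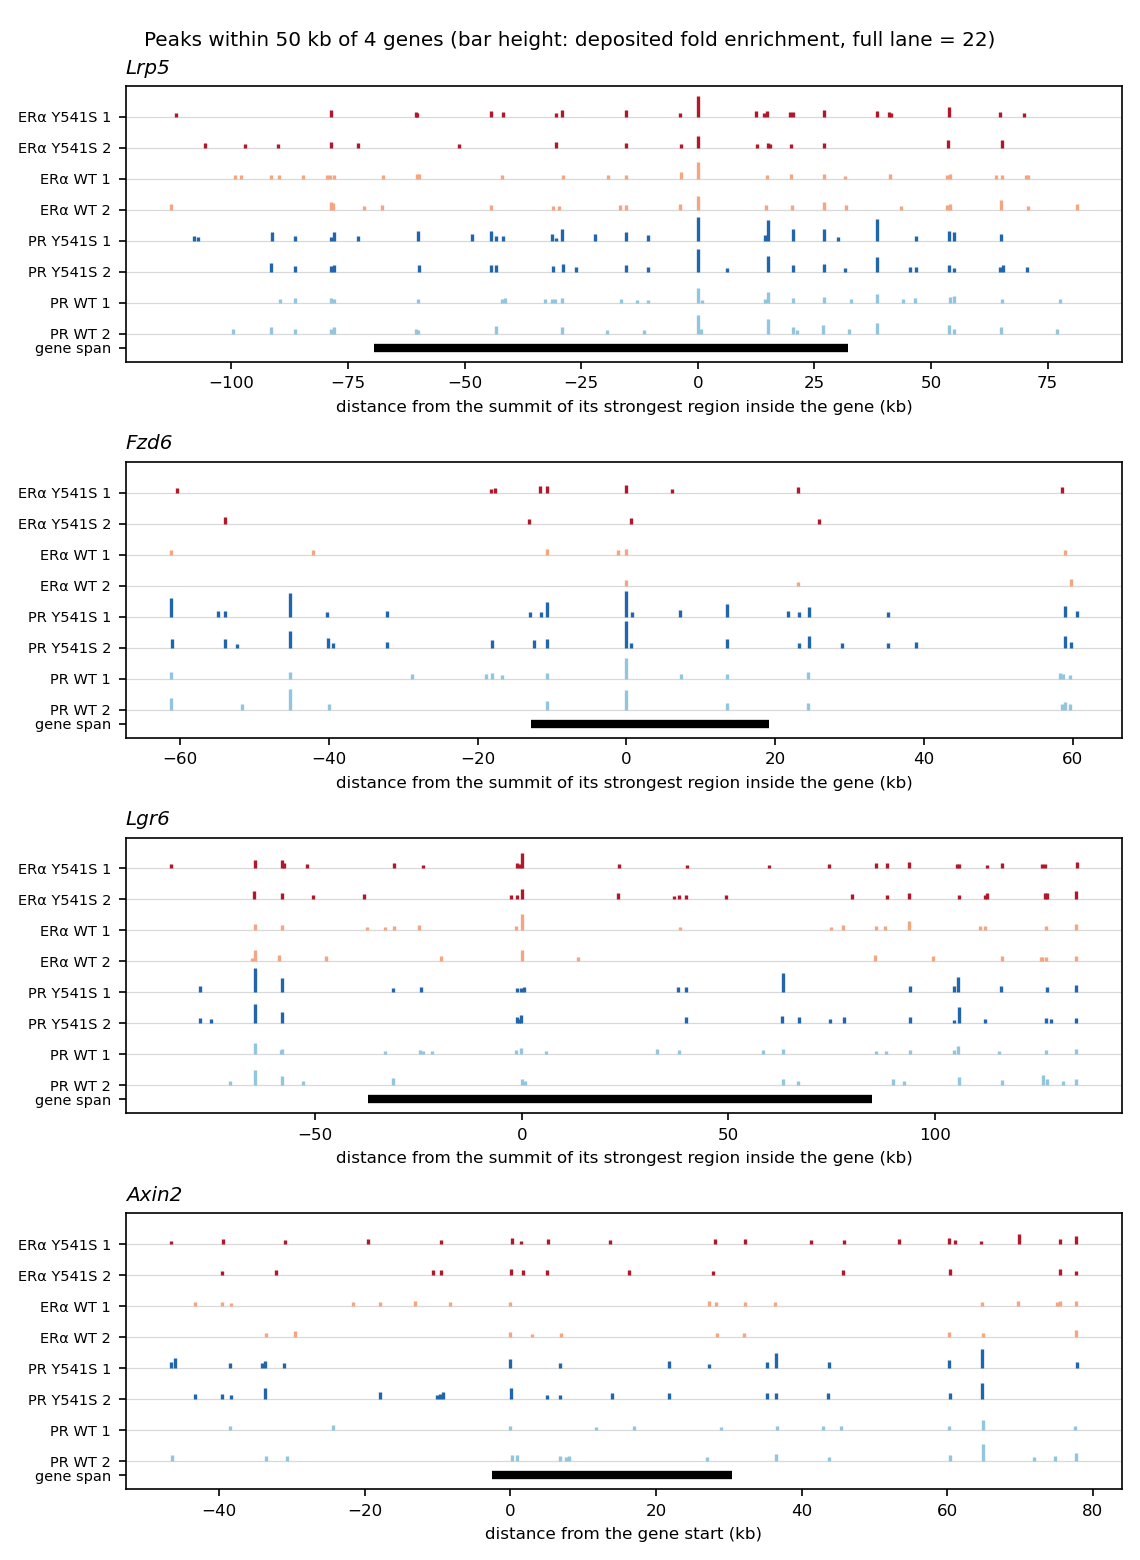
Peaks within 50 kb of Lrp5, Fzd6, Lgr6 and Axin2 in each of the 8 libraries, at their distance in kb along the chromosome from the strongest region inside the gene (for Axin2, from the gene start), with bar height for the deposited fold enrichment and a black bar for the gene span. Lrp5 has its tallest bar at 0 in all 8 libraries, Fzd6 has a tall PR bar at 0 in each PR library, Lgr6 has a tall ERα bar at 0, and the Axin2 start has a bar in all 8 libraries.

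Between receptors, PR had more peaks at the set than ERα in both genotypes, but its lists were also longer on average. Mean list length was 107538 peaks for PR and 106269 for ERα in Y541S, and 88236.5 and 68527 in WT. As a mean share of the list, linked peaks made up 0.410% for PR and 0.393% for ERα in Y541S. In WT the order was reversed, with 0.419% for PR and 0.440% for ERα. The shares were not tested between receptors. In Y541S glands there were 450 and 431 PR and 429 and 407 ERα peaks, a ratio of 1.05-fold (log2 difference 0.08, SE 0.05; exact permutation p = 0.333). In WT glands there were 357 and 382 PR and 331 and 273 ERα peaks, a ratio of 1.23-fold (log2 difference 0.30, SE 0.15; exact permutation p = 0.333). Within replicates the WT ratio was 1.08-fold and 1.40-fold, and its log2 value was -0.000500 over the 20000 strongest peaks.

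In Y541S glands, 8 members had more PR than ERα peaks without overlap, against 18% of all coding genes: Wnt7b, Fzd6, Fzd8, Lrp5, Lrp6, Lgr4, Lgr5 and Znrf3. The reverse held at 9 members, against 15.8% of all coding genes: Wnt5b, Wnt6, Wnt8a, Wnt8b, Wnt10a, Fzd2, Rspo1, Rspo4 and Lgr6. By role, ligands made up 1 of the 8 and 5 of the 9, beside 18 of the 40 members. In WT glands, 12 members had more PR peaks, against 27% of all coding genes, and 4 had more ERα peaks, Wnt6, Wnt8b, Wnt10a and Fzd9, against 4.58%. Wnt6 and Wnt10a share peaks and are not independent cases.

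**Figure D4:**
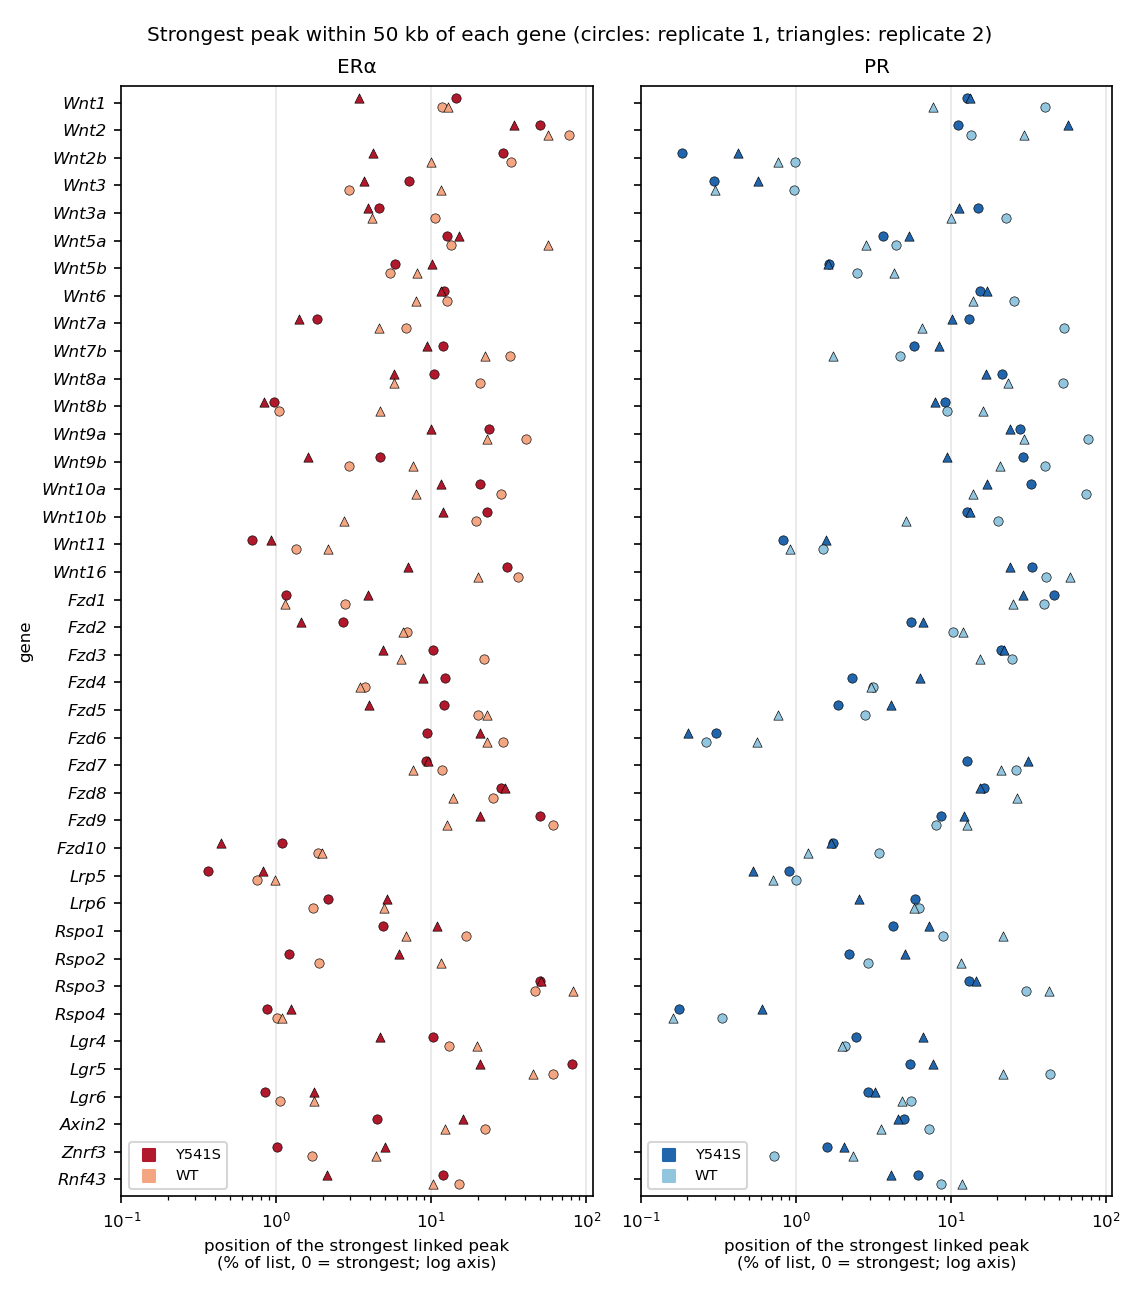
Position of the strongest linked peak of each gene in its library's list (horizontal log axis, percent of list length, with the strongest peaks at the left) for ERα and PR, with dark points for Y541S, light points for WT, circles for replicate 1 and triangles for replicate 2. Lrp5, Wnt11, Fzd10 and Rspo4 stand at the left in both panels, Fzd6, Wnt2b and Wnt3 in the PR panel and Lgr6 and Wnt8b in the ERα panel.

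The strongest linked peak was within the top 5% of all 4 ERα lists for 7 members, against 13.9% of all coding genes: Wnt8b, Wnt11, Fzd1, Fzd10, Lrp5, Rspo4 and Lgr6. For PR it was 10 members, against 18.8%: Wnt2b, Wnt3, Wnt5b, Wnt11, Fzd5, Fzd6, Fzd10, Lrp5, Rspo4 and Znrf3. Lrp5, Wnt11, Fzd10 and Rspo4 were on both lists. Several of these peaks had another gene closer, as the Wnt11 region near Uvrag.

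A region with a peak in all 8 libraries was linked to 27 of 40 members, against 64.8% of all coding genes, and 50 such regions were linked to the set out of 12113 in all. These regions merged the peaks of both receptors. ERα peaks that did not overlap one another could thus be joined through a PR peak, as at Fzd6, which had no shared ERα region. Of the 26 members with a start in the promoter table, 3 (Axin2, Fzd1 and Fzd5) had a summit within 1 kb of it in all 8 libraries, against 32.2% of 17492 genes. Wnt3, Wnt3a, Wnt8b, Wnt10b and Wnt16 had none in any library, 5 of the 26, against 5577 of the 17492 genes.

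ERα regions present in both Y541S replicates and linked to the set were overlapped by such PR regions in 59.7% of cases (111 of 186; 95% Wilson interval 52.5% to 66.5%), and those of WT in 50.9% (56 of 110; 41.7% to 60.1%). The shares for all coding genes were 63.5% in Y541S and 56.0% in WT. PR regions were overlapped by ERα regions in 38.1% (112 of 294; 32.7% to 43.8%) in Y541S and 29.8% (54 of 181; 23.6% to 36.9%) in WT, against 38.3% and 32.5% for all coding genes. The intervals cover counting error only, and each holds the share of all coding genes.

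The 45 other genes of the pathway, such as β-catenin, its destruction complex, TCF factors and secreted inhibitors, were counted in the same way. More ERα peaks in both Y541S than in both WT libraries were found at 28 of 45, with the reverse at 0, and more PR peaks at 20 of 45, with the reverse at 0, beside the shares of all coding genes given above. Those with most shared ERα regions had 6 each: Tcf7l1, a TCF factor, Axin1, the scaffold related to Axin2, Bcl9, a β-catenin cofactor, and Dvl2, which relays the signal of Frizzled receptors. Those with most shared PR regions were Ror2, a receptor for Wnt5a, with 14, Tcf7l1 and Tcf7l2 with 11 each and Ror1 with 10. Ror2 had 26 and 28 ERα peaks in Y541S glands, against 14 and 16 in WT glands, and 42 and 36 PR peaks in Y541S, against 32 and 28 in WT. Axin1 had 21 and 14 ERα peaks in Y541S, against 19 and 13 in WT, and 22 and 23 PR peaks in Y541S, against 19 and 22 in WT.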

How the data were processed

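Whole mammary glands were fixed, their chromatin sheared (300 to 500 bp), and 30 µg of it precipitated using 4 µg of anti-ERα or anti-PR antibody, per the labels' protocols. The authors deposited 1 peak list per library, on build mm10 as the submitters' processing notes name it. Which aligner and peak caller made the lists, in which versions, and whether input was used is not given in the sources used here. Every peak carried a deposited score tied to its p-value, a fold (ratio) enrichment at the summit, and a −log10 p and −log10 q, the authors' own values, of which the deposited −log10 p was at least 2. They were used to describe, rank and filter peaks within a list, since nothing states that heights were scaled between libraries. A longer list can follow from depth, precipitation or binding.

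Genes and spans came from RefSeq, GRCm38.p6. A peak was linked to every gene within 50 kb of its summit. Regions were merged at an overlap of 1 bp. Groups were taken from the labels: ERα and PR, each in Y541S and WT, with 2 libraries each. Log2 numbers of linked peaks and shares of the list were compared with two-sided exact permutation tests (6 arrangements, smallest p 0.33). Depth was read from the deposited fold and −log10 p as the lowest expected coverage (its 0.001 quantile), after recovery of whole coverage at the summits of at least 99.9956% of peaks per library, with a tolerance of 0.0001. The linking, merging and tests were tested on simulated data. Analysis used Python 3.11.15, numpy 2.4.6, pandas 2.3.3, scipy 1.17.1 and matplotlib 3.10.9.

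The members, lists and tests were chosen with earlier results of these data known. Given with values by library were, for each receptor, the 8 members with most shared regions, the 6 with most regions of each genotype-only class, the 6 whose strongest peak stood highest in the lists, those with a start peak in all 8 libraries, and Wnt5a, Wnt5b, Wnt7b, Wnt10a, Wnt10b, Rspo1, Lgr5, Axin2, Rnf43, Znrf3, Lrp5 and Lrp6. Of these, Wnt3, Wnt3a, Fzd3, Fzd7 and Rspo3 had their peak counts given only as ranges. Other members were named after their values were seen. Of the 45 other pathway genes, those with most shared regions were named. Alternatives were a −log10 p of at least 5, the 20000 strongest peaks of each list, coverage scaled to the shallowest library, a distance of 10 kb, linking to the closest gene, an overlap of 50% of the shorter peak, a replicate block and leaving out each library. The files give no sequence for peaks, and exons and introns were not separated.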

Additional observations from a re-analysis of the deposited data

Results flagged for a closer look

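Rnf43 was singled out because its ERα and PR counts moved in opposite directions between genotypes in every library. It had 19 and 17 ERα peaks in Y541S glands, against 13 and 11 in WT glands, and 16 and 17 PR peaks in Y541S glands, against 18 and 21 in WT glands. The difference of Y541S minus WT was 9 peaks higher for ERα than for PR. This difference between receptors was not tested, and Rnf43 is 1 of 40 genes looked at in this way. The PR groups were barely apart, with at most 17 peaks in Y541S and at least 18 in WT. Over the 20000 strongest peaks, Rnf43 was among the 2 members with more ERα peaks in Y541S. There it was also among the 6 members with a PR Y541S-only region, which goes against the PR direction above.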

How the results depend on the processing

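The 12 main values were recomputed under the alternatives that apply to them: the overlap of 50% of the shorter peak for the counts of members with a genotype-only region, the replicate block for the log2 numbers and shares, and the others for all 12. Of these recomputed values, 81 kept the sign of a difference or stayed within 1.5 times of a count. Of the rest, 27 counts moved by over 1.5 times and 10 differences changed sign. A kept sign does not mean a kept size. At a −log10 p of at least 5, the PR over ERα log2 difference in Y541S went from 0.08 to 0.77. The PR log2 difference between genotypes went from 0.25 to 0.74 there. The ERα share difference went from -0.0464 to -0.00103 with the closest gene only. The higher number of linked peaks in Y541S than in WT kept its direction for both receptors under every alternative run. The ERα share difference (-0.0464 percentage points as reported) was 0.0200 at a −log10 p of at least 5 and 0.0625 over the 20000 strongest peaks. The PR share difference (-0.00894) was 0.0101 and 0.08 under these, 0.00912 with scaled coverage, 0.00914 at 10 kb, 0.00686 with the closest gene only, and -0.0236 to 0.00572 when 1 library was left out (0.00186 without PR WT replicate 1 and 0.00572 without PR Y541S replicate 1). The PR over ERα log2 difference in WT (0.30) was -0.000500 over the 20000 strongest peaks.

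Of the 40 members, those with more ERα peaks in Y541S (19) numbered 6 at a −log10 p of at least 5 and 2 over the 20000 strongest peaks, and 23 to 28 with 1 library left out. For all coding genes these shares were 22% and 7.77%. Those with more PR peaks in Y541S (15) numbered 26 at a −log10 p of at least 5, against 42.1% of all coding genes, 7 over the 20000 strongest peaks, against 4.19%, and 19 to 24 with 1 library left out (24 without PR WT replicate 2 and 23 without PR Y541S replicate 2). With an ERα Y541S-only region (25) there were 7 over the 20000 strongest peaks, against 14.8% of all coding genes, and 14 at 10 kb, against 25.6%, and 27 to 40 with 1 library left out (40 without ERα Y541S replicate 1 and 40 without replicate 2). With an ERα WT-only region (7) there were 2 at a −log10 p of at least 5 (4.67% of all coding genes), 4 over the 20000 strongest peaks (5.82%), 4 with scaled coverage (9.75%), 2 at 10 kb (5.49%) and 3 with the closest gene (5.06%), and 10 to 39 with 1 library left out (39 and 34 without ERα WT replicates 1 and 2, and 13 without ERα Y541S replicate 1). With a PR Y541S-only region (29) there were 6 over the 20000 strongest peaks (8.64% of all coding genes), and 33 to 38 with 1 library left out. With a PR WT-only region (5) there were 1 at a −log10 p of at least 5 (2.21% of all coding genes), 2 with scaled coverage (4.29%), 1 at 10 kb (4.29%) and 3 with the closest gene (4.25%), and 8 to 35 with 1 library left out (33 and 35 without PR WT replicates 1 and 2, and 10 and 8 without PR Y541S replicates 1 and 2). With 1 library of a genotype left out, the only-classes need a peak, or the lack of one, in just 1 library of that genotype. The counts of members with more peaks likewise compare fewer libraries. By construction this admits more regions and members. No share of all coding genes stands beside the counts with a library left out, so they are not read as a result about the members. For the changes under the other alternatives the cause was not tested.

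With a replicate block, the log2 differences were 0.48 for ERα and 0.25 for PR, 0.30 and 0.08 for PR over ERα in WT and Y541S, and -0.0464 and -0.00894 percentage points for the shares, with exact permutation p of 0.5 at the lowest, the smallest that 2 pairs allow. With 2 pairs, whether the replicate numbers pair the libraries could not be settled.

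Limits: with 2 libraries per group, an exact permutation test of a single gene cannot give a p below 0.33. A linked peak shows neither its target gene nor its cell type. Peaks 45 to 50 kb from a member numbered 25 to 35 gene and peak pairs per library, against 18 to 25 at 50 to 55 kb, so the counts depend on the 50 kb limit.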

Other observations

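Among the 20000 strongest peaks of each list, more PR peaks in both Y541S than in both WT libraries were linked to 7 members, Wnt2b, Fzd4, Fzd8, Fzd10, Rspo3, Lgr5 and Lgr6, which is 17.5% of the set and compares with 4.19% of all coding genes. The same count for ERα was 2 members, Wnt7b and Rnf43, which is 5% of the set, against 7.77% of all coding genes. These members were named after their values were seen, and no test of the set was made.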
